A study of Bos taurus with 16 samples.

Results

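SLC6A13, SLC13A4, SLC22A6, SLC22A8 and GJB2 are 4 solute carriers and 1 connexin that are known from the barrier layers around the brain. They are 5 of the 27607 genes with a value in the PFC (prefrontal cortex) of 8 Lidia and 8 Wagyu bulls. They were taken from the study's list of genes that differ between the breeds and were thus selected on the breed difference in FPKM of these same animals, which is described here without a test. A list entry was paired with the gene that has the same chromosome, start and end. That gave a single gene for 4 members, while the GJB2 entry spanned a locus of 2 overlapping genes. All 5 members were among the 16586 genes with a mean level of at least 0.1 scaled FPKM. FPKM is fragments per kilobase of transcript, relative to all mapped fragments, so it can be compared between genes of different length, and scaled FPKM was additionally divided by a factor per animal.

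The 16 animals were intact males, sampled once each within an hour of death. The Lidia group (labelled aggressive, 4 bulls from the La Quinta farm and 4 from Montealto) had been incited to fight and was sampled at the bullring. The Wagyu group (labelled non-aggressive, 8 bulls) was sampled at a slaughterhouse. All animals were 3 years old except Montealto bull 4, which was 4 years old. Breed, farm, feeding, handling before death and place of sampling differ together and cannot be told apart. The tissue was dissected with the unaided eye, and whether the meninges were stripped off is not given in the sources used here. The FPKM of each animal rested on 13.7 M to 34.8 M fragments in Lidia and 7.67 M to 37.0 M in Wagyu, M being mega. La Quinta bull 4 and Wagyu bull 4 had the fewest fragments, and their deposited FPKM stood apart, with scaling factors of 1.77 and 2.19 against 0.612 to 1.12 in the other 14 animals. Markers of cortical neurons were present throughout: the summed level of 9 neuron genes was 350 to 538 scaled FPKM in Lidia and 427 to 686 in Wagyu.

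The brain is wrapped in the leptomeninges, in which fibroblasts produce collagen and an outer arachnoid layer joined by tight junctions separates the cerebrospinal fluid from the blood outside. Cells of these layers carry transporters that move organic anions, sulfate and GABA-related compounds across the barrier. Several of the same transporters are also known from the choroid plexus, the epithelium that secretes cerebrospinal fluid. Connexins form gap junction channels between neighbouring cells. Since whole tissue was sequenced, more cells of a type and more RNA per cell cannot be told apart.

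SLC13A4, a sodium-coupled sulfate transporter, lies on ARS-UCD 1.2 at chr4:99483644-99526129 on the minus strand (ENSBTAG00000003864). Its level was 0.714, 10.01, 11.95 and 10.96 scaled FPKM in La Quinta bulls 1 to 4 and 14.96, 0.498, 1.84 and 3.55 in Montealto bulls 1 to 4. In the 8 Wagyu bulls it ran from 0.0629 through a median of 0.138 to 2.43. The breeds overlapped: 5 Lidia bulls lay above every Wagyu bull, and 3 Wagyu bulls lay above the lowest Lidia bull. The means were 6.81 ± 5.76 (SD, n = 8) in Lidia and 0.723 ± 1.01 (SD, n = 8) in Wagyu, and on the log2(scaled FPKM + 0.1) scale Lidia was higher by 3.22. That is the widest breed difference of the 5 members. Of its 2 annotated transcripts, the one of 3685 bases held 99.9% of the gene's FPKM in Lidia and 99.6% in Wagyu.

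SLC22A8, the organic anion transporter OAT3, is at chr29:41302545-41323004 on the minus strand (ENSBTAG00000013644). La Quinta bulls 1 to 4 had 0.226, 4.76, 5.29 and 6.18 scaled FPKM. Montealto bulls 1 to 4 had 6.29, 0.486, 1.01 and 1.68. The Wagyu values ran from 0.0567 through a median of 0.225 to 1.83, so that 4 Lidia bulls were above all Wagyu bulls and 4 Wagyu bulls were above the lowest Lidia bull. Lidia was higher by 2.19 on the log2 scale, with means of 3.24 ± 2.63 (SD, n = 8) and 0.618 ± 0.756 (SD, n = 8). The lowest value rested on only about 2.22 fragments, so levels at the bottom of this range are poorly measured.

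SLC22A6, the related transporter OAT1, lies next to SLC22A8 at chr29:41285605-41293751 on the same strand (ENSBTAG00000013642), with 8793 bases between the genes. It had 1.41, 3.78, 4.05 and 4.22 scaled FPKM in La Quinta bulls 1 to 4 and 4.99, 1.30, 1.67 and 1.75 in Montealto bulls 1 to 4. The Wagyu bulls had 0.805 to 2.04, with a median of 1.18. The Lidia bulls fell into 4 high and 4 low animals, separated by 57.5% of the group's log2 range, and the low ones lay among the Wagyu values. Lidia was higher by 0.97 on the log2 scale, the means being 2.90 ± 1.5 (SD, n = 8) and 1.31 ± 0.446 (SD, n = 8). The highest of the 16 animals was 6.20 times the lowest for SLC22A6 and 111 times the lowest for its neighbour.

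The balance of these neighbouring OAT genes differed between animals. SLC22A8 exceeded SLC22A6 in 4 of 8 Lidia bulls and in 0 of 8 Wagyu bulls. Its level divided by that of SLC22A6 had a median of 1.11 in Lidia (0.161 to 1.46) and of 0.204 in Wagyu (0.0467 to 0.948). The ratio was below 1 in La Quinta bull 1 and Montealto bulls 2, 3 and 4.

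SLC6A13, the GABA and taurine transporter GAT2, is at chr5:107170136-107208656 on the minus strand (ENSBTAG00000014525). The 4 La Quinta bulls had 1.5, 6.89, 8.36 and 7.47 scaled FPKM in order, and the 4 Montealto bulls had 14.2, 2.19, 2.38 and 3.5. In Wagyu the range was 0.470 to 3.76 around a median of 0.760. Overlap was small: 4 Lidia bulls were above every Wagyu bull, and 2 Wagyu bulls were above the lowest Lidia bull. Means were 5.82 ± 4.31 (SD, n = 8) in Lidia and 1.45 ± 1.35 (SD, n = 8) in Wagyu, a difference of 1.98 on the log2 scale.

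GJB2 encodes connexin 26. Its list entry covers chr12:36079422-36081883, where ENSBTAG00000017425 on the plus strand (2191 bases) and ENSBTAG00000052099 on the minus strand (1032 bases) overlap. Whether strand was used in estimating abundance is not given in the sources used here, so reads of the overlap may be shared between them, and the FPKM of both was summed as the GJB2 locus. The sum was 4.76, 13.6, 15.1 and 11.1 in La Quinta bulls 1 to 4, and 22.8, 4.97, 7.44 and 8.19 in Montealto bulls 1 to 4. Wagyu bulls had 2.04 to 9.86, with a median of 5.18, and 5 of them lay above the lowest Lidia bull. The means were 10.998 ± 6.07 (SD, n = 8) and 5.43 ± 2.63 (SD, n = 8), with Lidia higher by 0.97 on the log2 scale. ENSBTAG00000052099 was listed at 0 in La Quinta bull 4 and Wagyu bull 4, the animals whose deposited FPKM stood apart, and was above 0 in the other 14. ENSBTAG00000017425 alone had 2.98 to 13.4 in Lidia and 2.04 to 5.79 in Wagyu, and differed by 0.98 on the log2 scale.

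**Figure D1:**
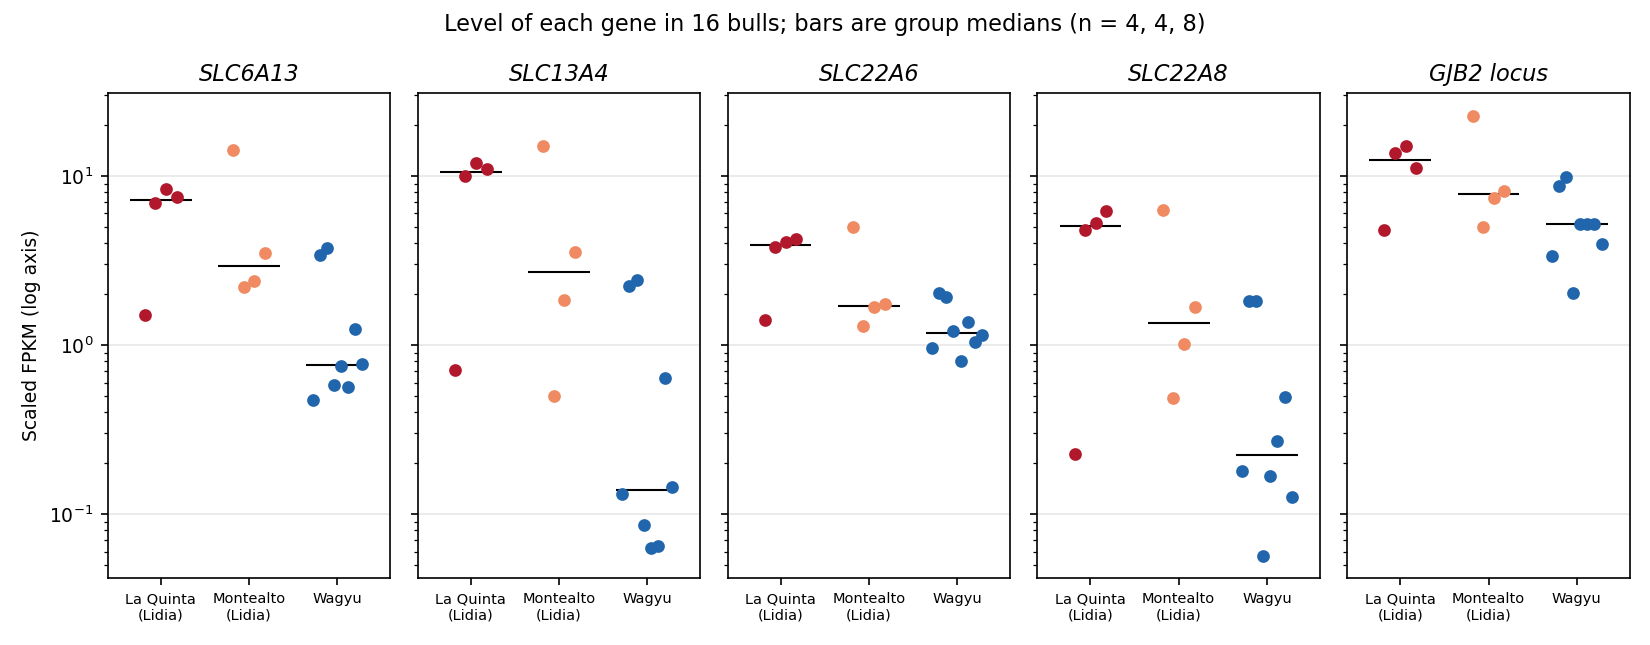
Level of each gene in scaled FPKM on a log axis, 1 point per bull and the group median as a bar, for 4 La Quinta, 4 Montealto and 8 Wagyu bulls. In each panel La Quinta bulls 2, 3 and 4 and Montealto bull 1 lie above every Wagyu bull, while La Quinta bull 1 lies among the Wagyu values.

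Against the background of all genes, 5 of 5 members had at least 4 Lidia bulls above every Wagyu bull, which 9.74% of the tested genes had. No member had all 8 Lidia above all 8 Wagyu bulls, as 0.386% of genes did. Limma with Benjamini-Hochberg adjustment called 4.99% of genes between the breeds in either direction, and 3.33% as higher in Lidia. Of the 5 members, 2 were among the genes called higher. Nothing is read from these shares for the members, since the list that supplied them came from the same contrast. The median difference over all genes was -0.01 on the log2 scale.

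Within an animal the order of the levels was partly stable. The GJB2 locus, as the sum of its 2 genes, was the highest of the 5 in 8 of 8 Lidia and 8 of 8 Wagyu bulls. With ENSBTAG00000017425 alone, that rank did not hold in La Quinta bulls 2 and 3 and Montealto bull 1. This gene had 8.03, 8.57 and 13.4 scaled FPKM there, against 10.01, 11.95 and 14.96 for SLC13A4. In Lidia, SLC13A4 followed by its mean but exceeded SLC6A13 in only 5 of 8 bulls, so these neighbours in the order do not differ beyond their spread. SLC6A13 exceeded SLC22A8 in 8 of 8 Lidia bulls, and SLC22A8 exceeded SLC22A6 in 4 of 8. By mean level, the Wagyu order below the GJB2 locus was SLC6A13, SLC22A6, SLC13A4 and SLC22A8. No pair of neighbours in it held in every animal: SLC6A13 was above SLC22A6 in 3 of 8, SLC22A6 above SLC13A4 in 6 of 8, and SLC13A4 above SLC22A8 in 5 of 8.

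Both farms lay above Wagyu for every member, and the Wagyu bulls are shared by those differences. On the log2 scale, La Quinta and Montealto were higher than Wagyu by 3.73 and 2.71 for SLC13A4. The corresponding values were 2.54 and 1.83 for SLC22A8, 2.14 and 1.82 for SLC6A13, 1.24 and 0.70 for SLC22A6, and 1.05 and 0.88 for the GJB2 locus. In La Quinta 3 of 4 bulls exceeded every Wagyu bull for each gene. In Montealto 1 of 4 did so, or 2 of 4 for SLC13A4.

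**Figure D2:**
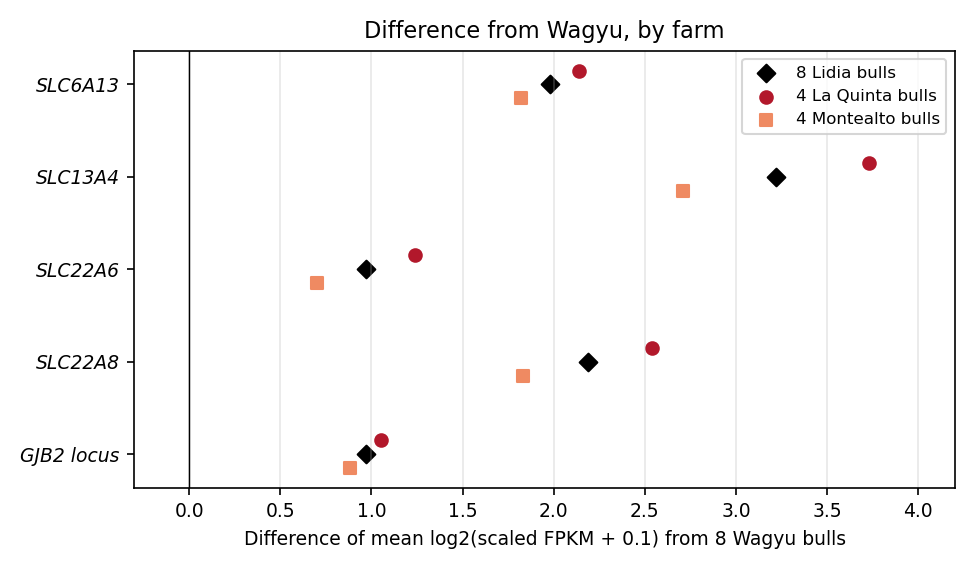
Difference of the mean log2(scaled FPKM + 0.1) from the 8 Wagyu bulls, for all 8 Lidia bulls (diamonds), 4 La Quinta bulls (circles) and 4 Montealto bulls (squares). Every point is above 0, from 0.70 for SLC22A6 in Montealto to 3.73 for SLC13A4 in La Quinta.

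The farms were then compared with each other, a contrast that did not choose the members. La Quinta was higher than Montealto by 1.03 ± 1.13 (limma SE, n = 4 and 4) on the log2 scale for SLC13A4 (exact two-sided permutation test, p = 0.486). For SLC22A8 the difference was 0.71 ± 1.05 (exact permutation p = 0.629) and for SLC22A6 0.54 ± 0.47 (exact permutation p = 0.457). SLC6A13 differed by 0.32 ± 0.70 (exact permutation p = 0.657) and the GJB2 locus by 0.16 ± 0.50 (exact permutation p = 0.829). Leaving out 1 bull moved them widely: from 0.28 without Montealto bull 2 to 1.96 without La Quinta bull 1 for SLC13A4, and from 0.21 to 1.73 without the same bulls for SLC22A8. The lowest and highest values, without Montealto bull 2 and without Montealto bull 1, were 0.04 and 0.92 for SLC6A13, 0.32 and 0.94 for SLC22A6, and -0.13 and 0.60 for the GJB2 locus. None exceeded the spread between bulls, and the smallest p that 4 against 4 animals allow is 0.0286. Limma adjusted over all genes gave 0.949 to 0.974 for the 5 members. It called 0.0423% of genes between the farms, 7 of 16556, with 0 members among them and 680 genes at an unadjusted p under 0.05. With standard errors of 0.47 to 1.13, a difference of that size between the farms was not detectable with 4 bulls each.

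The spread within Lidia followed the same animals for every member. La Quinta bulls 2, 3 and 4 and Montealto bull 1 held the 4 highest Lidia values of each of the 5 genes, and Wagyu bulls 2 and 3 held the highest Wagyu values of each. The same 4 and 2 bulls were highest for 1.22% of all tested genes. These bulls were picked from the members' own values, and the members were chosen on the breed difference of these animals. Nothing is therefore read from that share. La Quinta bull 1 was below its 3 farm mates in each gene, at 0.714 against at least 10.01 for SLC13A4 and at 4.76 against at least 11.1 for the GJB2 locus.

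**Figure D3:**
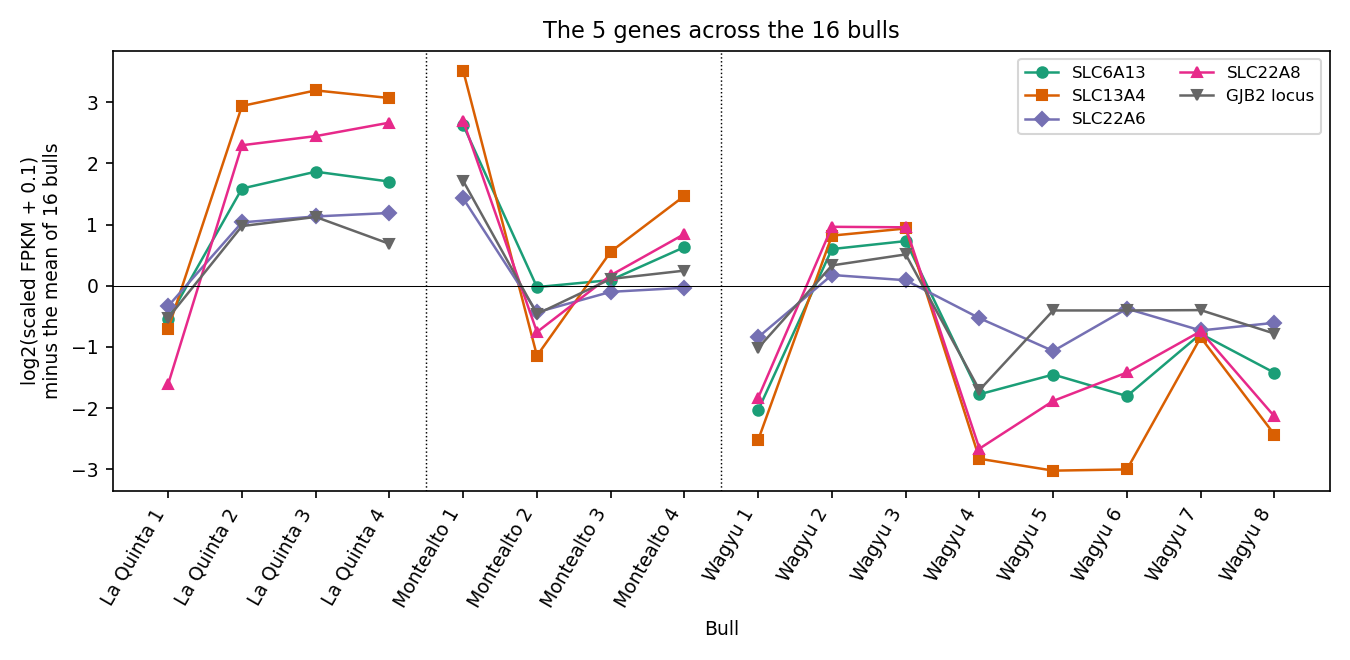
Profile of the 5 genes across the 16 bulls, as log2(scaled FPKM + 0.1) minus the gene's mean over all bulls, with dotted lines between the farms and breeds. The lines rise and fall together, with La Quinta bulls 2 to 4, Montealto bull 1 and Wagyu bulls 2 and 3 as the high animals of their groups.

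Covariation was measured within each breed, where the mean breed difference does not enter. Choosing the members on the breed difference of these animals can still favour genes that are high in the same Lidia bulls. The p-values do not account for that choice. In Lidia the 6 pairs among SLC6A13, SLC13A4, SLC22A8 and the GJB2 locus had Pearson's r of 0.93 to 0.98 and Spearman's rho of 0.93 to 0.98 over 8 bulls. All 6 passed the exact permutation test of pairings for both (adjusted p of 6.6e-04 to 0.00212 for r and 0.00159 to 0.00496 for rho, over 20 relations computed in both breeds). The closest pair was SLC13A4 and SLC22A8, with r = 0.98. Without the 2 bulls farthest from the median of the first gene, r was 0.83 to 0.99 (exact permutation p of 0.00139 to 0.0361). The pairs with SLC22A6 get no pooled r in Lidia, because that gene split the 8 bulls into separate sets of 4. With GJB2 taken as ENSBTAG00000052099 alone, which is listed at 0 in La Quinta bull 4, its r with SLC6A13, SLC13A4 and SLC22A8 fell to between 0.09 and 0.20 in Lidia.

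In Wagyu, bulls 2 and 3 stood above the other 6 for each gene. For SLC6A13 these bulls had 3.43 and 3.76 scaled FPKM, the other 6 had 0.470 to 1.25, and the space between made up 50.2% of the log2 range, so its pairs get no pooled r. For the other members that space was 33.0 to 46.9% of the range. Their 6 pairs had r of 0.62 to 0.95 over 8 bulls, of which 5 passed (exact permutation, adjusted p of 0.00198 to 0.102), and rho of 0.43 to 0.86, of which 1 passed (exact permutation, adjusted p of 0.0195 to 0.299). Without bulls 2 and 3, the farthest from the median, 0 of the 10 pairs of all 5 members passed (exact permutation p of 0.0694 to 0.9 before adjustment), so the calls rest on those bulls. The size of r then depended on the pair. It stayed at 0.80 for SLC6A13 and SLC13A4, at 0.78 for SLC22A8 and the GJB2 locus and at 0.69 for SLC13A4 and SLC22A8, while the pairs with SLC22A6 had -0.24 to -0.07. That the breeds differ in covariation was not tested.

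Neighbouring genes of the same families were followed beside the members. SLC6A12, the betaine and GABA transporter 4442 bases from SLC6A13, had 1.86 ± 0.621 scaled FPKM in Lidia and 1.12 ± 0.468 in Wagyu (SD, n = 8 each). Its r with SLC6A13 in Lidia was 0.78 and rho 0.69 (exact permutation, adjusted p of 0.0359 and 0.139 over 6 relations), and without the 2 farthest bulls r was 0.58 and no longer passed (exact permutation p = 0.237). In Wagyu, where SLC6A13 splits the bulls, rho was 0.93 (exact permutation, adjusted p = 0.00670), and without the 2 farthest bulls r was 0.68 (exact permutation p = 0.121). GJB6, the astrocyte connexin 30, lies 19477 bases from the GJB2 locus and had 24.3 ± 7.05 in Lidia and 14.4 ± 3.42 in Wagyu (SD, n = 8 each). Its r with the GJB2 locus in Lidia was 0.60 and rho 0.52, and neither passed (exact permutation, adjusted p of 0.116 and 0.236).

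Other connexins and solute carriers were drawn from lists chosen with earlier results known. Only genes of the study's breed list, higher or lower in Lidia, carry a symbol. That the named genes differ between the breeds thus restates that selection. Of 14 connexins, 4 had a symbol, and limma called GJA1 and GJB6 higher in Lidia. GJA1, connexin 43, had 32.2 ± 6.77 and 17.8 ± 7.09 scaled FPKM (SD, n = 8 each). GJB1, a connexin of oligodendrocytes and Schwann cells, was not called. In 0 of these 4 were the high bulls of the GJB2 locus the highest. Of 21 solute carriers, 13 had a symbol and 2 were called higher, SLC16A12 and the iron exporter SLC40A1, with a median difference of 0.73 on the log2 scale. In 6 of the 13 the same 4 Lidia and 2 Wagyu bulls were the highest. Among them were SLC13A3, SLCO2A1, SLC16A12, SLC26A2 and SLC5A5, carriers of dicarboxylates, prostaglandins, monocarboxylates, sulfate and iodide, respectively. SLC5A5 had 0.851 ± 0.786 in Lidia and 0.0756 ± 0.0872 in Wagyu (SD, n = 8 each), and SLC26A2 had 1.05 ± 0.944 and 0.207 ± 0.124.

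Markers of cell types were taken from lists of the same kind. A marker has a symbol here only if it stood on the study's breed list, so the counts called and the medians of these lists restate that selection and are given as a description, beside the 3.33% of all genes called higher. Of 19 leptomeningeal fibroblast genes, 16 had a symbol and limma called 9 higher and 0 lower in Lidia, with a median difference of 1.67 on the log2 scale. The growth factor IGF2, the highest of them, had 17.5 ± 12.7 scaled FPKM in Lidia and 3.91 ± 4.71 in Wagyu (SD, n = 8 each). DCN, the matrix proteoglycan decorin, had 11.6 ± 6.41 and 3.42 ± 2.42. Their summed level was 35.5 to 173 scaled FPKM in Lidia and 12.01 to 61.7 in Wagyu. The bulls high for the members were high here: La Quinta bulls 2, 3 and 4 and Montealto bull 1 had 101, 143, 134 and 173, and the other Lidia bulls at most 49.7. In 14 of the 16 genes the same 4 Lidia and 2 Wagyu bulls were the highest.

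Of 12 arachnoid barrier genes, 8 had a symbol, 3 were called higher (JUP, PPL and KRT19) and 0 lower, and the median difference was 1.23. KRT19, a keratin, had 2.52 ± 3.41 scaled FPKM in Lidia and 0.251 ± 0.331 in Wagyu (SD, n = 8 each). DSP, desmoplakin of cell junctions, had 1.67 ± 1.56 and 0.201 ± 0.357. The same bulls were highest for 4 of the 8. CLDN11, which oligodendrocytes also express, had the highest mean of the list, whose summed level was 19.2 to 64.2 in Lidia and 12.6 to 43.0 in Wagyu. That sum did not follow the bulls high for the members: it was highest in Montealto bull 2 (64.2) and Wagyu bull 1 (43.0), and Wagyu bulls 2 and 3 had 18.9 and 24.7.

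Mean log2 levels of the marker lists were set against the members within Lidia, among 100 relations of 10 lists in both breeds. The members and the named marker genes all stood on the study's breed list, which can favour genes high in the same Lidia bulls. Of the 16 named fibroblast genes, 15 had at least 4 Lidia bulls above every Wagyu bull. The p-values here do not account for that selection. For the 4 members other than SLC22A6, r with the fibroblast list was 0.95 to 0.97 and rho 0.95 to 1.00 (exact permutation, adjusted p of 0.00310 to 0.00794 for r and 0.00496 to 0.0190 for rho). Without the 2 farthest bulls r was 0.93 to 0.98. The arachnoid list gave r of 0.95 to 0.98 and rho of 0.90 to 0.98 (exact permutation, adjusted p of 0.00310 to 0.00496 and 0.00992 to 0.0415), and r of 0.90 to 0.98 without the 2 farthest. Both lists therefore covaried with the 4 members across the Lidia bulls, and that relation is among animals and names no cell as the source. In Wagyu, r with the 4 members other than SLC6A13 was 0.74 to 0.91 for the fibroblast and 0.68 to 0.89 for the arachnoid list. For r, only SLC13A4 and SLC22A8 with the arachnoid list passed there (exact permutation, adjusted p of 0.0219 and 0.0475). Without Wagyu bulls 2 and 3, r with all 5 members was -0.07 to 0.54 and -0.70 to 0.62 (exact permutation p of 0.121 to 0.993 before adjustment).

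The lists of other cells did not pass for these 4 members in Lidia, but their r depended on the scaling. Endothelial genes had r of -0.24 to 0.05 (exact permutation, adjusted p of 0.784 to 0.930), with 5 of 10 called higher in Lidia. Astrocyte genes had r of 0.52 to 0.66 (exact permutation, adjusted p of 0.199 to 0.367), with 5 of 9 called higher, and microglial genes 0.06 to 0.33, with 2 of 6. Oligodendrocyte genes had r of -0.45 to -0.24, with 2 of 12 called higher. Mural cell genes had r of 0.12 to 0.38, with 2 of 4 called higher, and r of 0.77 to 0.88 without the 2 farthest bulls (exact permutation p of 0.0111 to 0.05 before adjustment). HBB, the only named red blood cell gene, had r of 0.09 to 0.27. On the FPKM as deposited, in which La Quinta bull 4 stood apart, r with the 5 members was 0.50 to 0.67 for the endothelial, 0.46 to 0.60 for the neuron and 0.77 to 0.90 for the astrocyte list, with 0, 0 and 1 relations passing. For the fibroblast and arachnoid lists it was 0.96 to 0.99 and 0.92 to 0.99 on that scale. In Wagyu, on scaled FPKM and with the 4 members other than SLC6A13, the endothelial list had r of 0.71 to 0.83. The mural list had 0.65 to 0.79 there, and neither list passed for r (exact permutation, adjusted p of 0.0558 to 0.199). These ranges overlap those of the fibroblast and arachnoid lists in Wagyu. Without bulls 2 and 3, r with all 5 members was -0.30 to 0.34 and -0.56 to 0.66. The astrocyte list in Wagyu had r of 0.47 to 0.81 with the 4 members other than SLC6A13, and none passed for r. Its rho with SLC22A6 was 0.90 and passed (exact permutation, adjusted p = 0.0415). Without the 2 farthest bulls, r of that pair was 0.94 (exact permutation p = 0.00556 before adjustment). Without bulls 2 and 3, the astrocyte list had r of -0.90 to 0.36 with all 5 members.

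Of the 9 neuron genes named by the same breed list, 0 had a higher mean in Lidia and CHGB, the secretory granule protein chromogranin B, was called lower, which restates that selection. The neuron list had r of -0.08 to 0.19 with the 4 members in Lidia (exact permutation, adjusted p of 0.862 to 0.981). Without the 2 farthest bulls, among them Montealto bull 2 with the lowest neuron level, r was -0.86 to -0.80 (exact permutation p of 0.0111 to 0.0514 before adjustment). The part that meningeal tissue in a sample has in the members' levels was not tested.

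**Figure D4:**
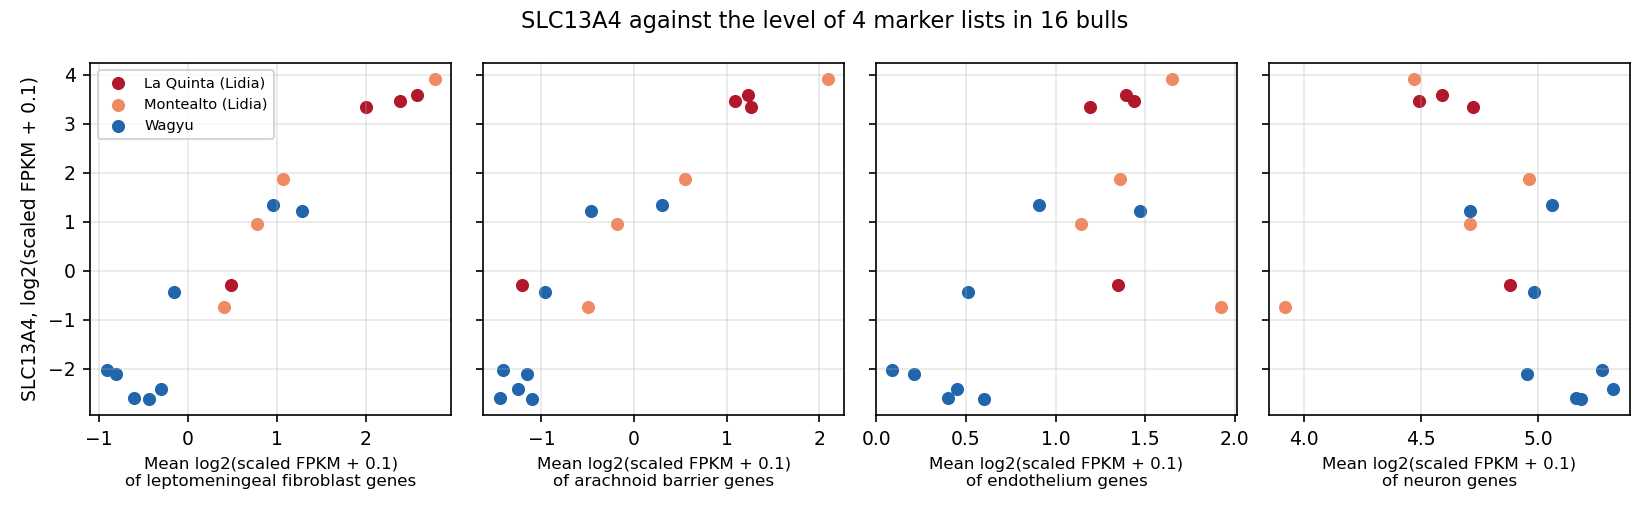
SLC13A4 against the mean level of 4 marker lists, both as log2(scaled FPKM + 0.1), 1 point per bull coloured by farm or breed. SLC13A4 rises with the leptomeningeal fibroblast and arachnoid barrier genes across the Lidia bulls, while Montealto bull 2 has the lowest neuron level (3.92) and the highest endothelium level (1.92) with a low SLC13A4.

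TTR, transthyretin of the choroid plexus epithelium, was the only named gene of 10 on that list. It had 1.06 to 1.79 scaled FPKM in the 4 La Quinta bulls and 7.58 to 18.9 in the 4 Montealto bulls, and was lower in La Quinta by a log2 difference of -2.92 ± 0.28 (limma SE, adjusted p = 0.00932). The La Quinta bulls high for the members were thus at the low end for TTR, and r with the 4 members over the 8 Lidia bulls was -0.35 to -0.14 (exact permutation, adjusted p of 0.609 to 0.886). In Wagyu, bulls 2 and 3 had the highest TTR as well, 9.45 and 6.87 against at most 3.86. There r with the 4 members other than SLC6A13 was 0.71 to 0.82 and 0 passed (exact permutation, adjusted p of 0.0558 to 0.158). Their rho was 0.69 to 0.90 and passed for SLC22A8 alone (exact permutation, adjusted p = 0.0415). Without the 2 bulls farthest from the TTR median, here the low Wagyu bulls 4 and 5, r was 0.70 to 0.86. Without Wagyu bulls 2 and 3, r with all 5 members was 0.39 to 0.71 (exact permutation p of 0.110 to 0.429 before adjustment). The difference between the breeds in this relation was not tested.

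The genes most like each member were ranked by r over the 16 bulls after centring each breed, as a description. This r pools bulls that SLC22A6 split into separate sets in Lidia and SLC6A13 in Wagyu. For these genes it may mostly reflect which bulls were high. OSR1, a transcription factor, was closest to SLC13A4 (r = 0.99) and among the 5 closest of SLC6A13, SLC22A8 and the GJB2 locus. CRABP2, a retinoic acid binding protein, was among the 5 closest of SLC6A13, SLC13A4 and SLC22A8 (r of 0.97 to 0.98). ZIC1, a zinc finger transcription factor, was among those of SLC6A13, SLC13A4 and the GJB2 locus. KANK2 led for SLC6A13 (r = 0.98), ahead of the collagen COL3A1 (0.97). SLC13A4 was also closely followed by C25H16orf89 (0.98).

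SLC22A6 had another set of closest genes, each with r = 0.96: FRZB, a secreted Wnt antagonist, the iodide carrier SLC5A5, the coagulation cofactor PROS1, the magnesium carrier SLC41A1 and ENSBTAG00000020578. ENSBTAG00000048984 was closest to the GJB2 locus (0.94) and, with ENSBTAG00000033510, close to SLC22A8 (both 0.97). Among 16585 other genes, SLC13A4 ranked 5 for SLC22A8, and SLC22A8 ranked 2 and SLC6A13 3 for the GJB2 locus. For SLC22A6 the best placed member was SLC22A8, at rank 71 with r = 0.89.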

How the data were processed

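Paired reads of 100 bases came from PFC RNA of 16 bulls, 8 per breed. The authors trimmed the reads, mapped them to ARS-UCD 1.2 with STAR 2.7.3a, used SAMtools 0.1.18, and estimated transcript FPKM with Cufflinks 2.2.1. The deposited FPKM is other than a count and carries no scaling between animals beyond that by mapped fragments. Breed came from the GEO labels, and farms from the study's sample table. Wagyu and farm bulls are numbered in the order of the series.

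Transcript FPKM was added up per gene, divided by a median-of-ratios factor from 15998 genes above 0 in all animals, and taken as log2 with 0.1 added, which understates changes of low genes. Genes with a mean of at least 0.1 were fitted with limma 3.58.1 in R 4.3.3 (variance trend, two-sided, Benjamini-Hochberg), with calls where adjusted p was 0.05 or less and the log2 difference 0.1 or more in size. The Cuffdiff comparison that made the breed list needs alignments and was not repeated. Single values used exact permutation in Python 3.11.15 with scipy 1.17.1. The fit was tested on simulated data. Depth was coverage divided by FPKM at 200 bases per fragment. Read counts were not used, so precision rests on the spread between animals.

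Of 1197 list entries, 1158 were paired with a gene or locus. Named genes are the members, the lists, the neighbours SLC6A12 and GJB6, and the 5 genes most like each member. Some genes that this rule names are not reported here. Members and lists were chosen with earlier results of these data known. Alternatives were another scaling, pseudocount or filter, array weights, no variance trend, and leaving out animals.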

Additional observations from a re-analysis of the deposited data

Results flagged for a closer look

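La Quinta bull 1 lay apart from its 3 farm mates for 4 of the 5 genes. Its gap to the next bull, divided by the range of the 4 La Quinta bulls on the log2 scale, was 0.89 for SLC6A13, 0.93 for SLC13A4, 0.90 for SLC22A6 and 0.91 for SLC22A8, past the limit of Dixon's test for 4 samples. Chance gives about 1 such value in 20 groups, and the 4 genes covary, so these are not independent. The bull had 27.1 M fragments and a scaling factor of 1.05, both within the range of the other animals. Its fibroblast sum was 35.5 scaled FPKM, against 101 to 143 in the other La Quinta bulls, and its neuron sum of 538 was the highest in Lidia.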

How the results depend on the processing

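The breed differences of the members kept their sign under every alternative computed, between 0.57 and 3.77 on the log2 scale. The number of genes called between the breeds was 827, and became 0 on the FPKM as deposited (limma, with 1023 at an unadjusted p under 0.05), 3086 with array weights, 240 without both animals of inflated FPKM, and 364 to 1424 when 1 animal was left out, lowest without Wagyu bull 8 and highest without Wagyu bull 2. Calls between the farms, 7, became 3 with a pseudocount of 1, 3 at a mean of at least 1 FPKM, 25 with array weights, 15 in a fit of 3 groups over 16 animals, and 2 to 9 when 1 bull was left out, lowest without La Quinta bull 1. The GJB2 difference between the farms reversed to -0.95 with ENSBTAG00000052099 alone (chosen after seeing the data), and to -0.02 without La Quinta bull 3 and -0.13 without Montealto bull 2; leaving out 1 bull gave -0.13 to 0.60. No farm difference of a member passed in any alternative. In the 6 Wagyu bulls other than 2 and 3, also chosen after seeing the data, r with SLC22A6 reversed to -0.19 for SLC6A13, -0.07 for SLC13A4, -0.07 for SLC22A8 and -0.24 for the GJB2 locus. Over both breeds and all 8 bulls of each, 19 of 20 pairs passed, 13 to 20 under the alternatives, and 15 of 100 list relations, 15 to 18 under them. Both counts include relations of SLC22A6 in Lidia and of SLC6A13 in Wagyu, for which no pooled r is given above. Neither range includes the fit to the 6 Wagyu bulls, in which 0 of the 10 pairs passed, so the Wagyu part of the 19 rests on bulls 2 and 3. The cause of these changes was not tested. No paired analysis was possible because the labels give the breeds no shared replicate numbers. Depth limits the lowest SLC13A4 and SLC22A8 values.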
